A study of Mus musculus with 10 samples.

Results

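The genes described here are 10 components of inhibitory G protein signalling, taken as the rows of the deposited gene count table that carry their symbols, out of 22255 genes in all. They comprise 5 Gi/o alpha subunits (Gnao1, Gnai1, Gnai2, Gnai3 and Gnaz), the beta subunit gene Gnb5 and 4 regulators of G protein signalling (Rgs4, Rgs7, Rgs8 and Rgs17). RNA came from hippocampal synaptoneurosomes, a preparation enriched in pinched-off synaptic terminals, of wild-type C57Bl/6J mice. Of 10 libraries, 5 were from mice given vehicle and 5 from mice given AM6545 by sub-chronic administration. The 2 groups share strain, genotype, tissue and preparation, and the labels used here give no dose, duration, sex or age. Whether a library is 1 animal or a pool is not stated either, so n counts libraries and the p-values measure only the spread between libraries, which may be technical. None of the 10 genes differed between AM6545 and vehicle by the test across all genes. The nearest to a difference was Rgs17, which was lower in 4 of 5 AM6545 libraries than in any vehicle library. Each gene's estimated change was between a log2 fold change of -0.20 (Rgs17) and 0.09 (Gnai1).

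AM6545 is an antagonist of the cannabinoid receptor CB1 (gene Cnr1) with limited entry into the brain, and CB1 signals through Gi/o proteins. At rest an alpha subunit holds GDP and is bound to a beta-gamma pair; an active receptor exchanges GDP for GTP, and the parts separate. Gi alpha subunits then inhibit adenylyl cyclase, while the freed beta-gamma pair opens GIRK potassium channels and restrains presynaptic calcium channels. RGS proteins end the signal by speeding GTP hydrolysis on the alpha subunit. Gnb5 encodes an atypical beta subunit that is an obligate partner of the R7 class of RGS proteins, to which Rgs7 belongs. Rgs4 and Rgs8 are small RGS proteins of the R4 class, and Rgs17 belongs to the RZ class, known for action on the Gnaz product.

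The end of the alpha subunit is the part that docks on the receptor, and it sets Gnaz apart from the other 4 alpha genes. The last 36 coding bases before the stop codon are shown for the transcript of highest count of each gene, with 2 further Gnao1 transcripts, read from the GENCODE M21 transcripts (GRCm38). Capitals mark the fourth codon from the end, the cysteine that pertussis toxin modifies in Gi/o proteins.
Gnao1-203: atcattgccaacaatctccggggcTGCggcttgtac
Gnao1-201: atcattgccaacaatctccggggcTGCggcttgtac
Gnao1-207: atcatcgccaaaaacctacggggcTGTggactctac
Gnai1-201: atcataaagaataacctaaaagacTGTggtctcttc
Gnai2-201: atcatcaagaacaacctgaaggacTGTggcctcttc
Gnai3-201: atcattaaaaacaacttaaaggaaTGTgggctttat
Gnaz-201: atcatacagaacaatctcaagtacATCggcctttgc
This codon reads TGC or TGT, for cysteine, in every Gnao1 and Gnai transcript shown. In Gnaz it reads ATC, for isoleucine, and the Gz protein is known to be insensitive to the toxin.

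Gnao1 is known for splice forms called GoA and GoB, which differ in their last coding exons. Gnao1-203 and Gnao1-201 hold the same coding sequence, and Gnao1-207 has another end. All 3 coding sequences are 1062 bases long. Gnao1-207 is identical to the other 2 over the first 737 coding bases, and at 237 of the 325 that follow (72.9%). The stretch where the coding sequences part is shown. It spans coding bases 721 to 780, counted from the start codon, and capitals mark the 9 of 60 bases that differ.
Gnao1-203: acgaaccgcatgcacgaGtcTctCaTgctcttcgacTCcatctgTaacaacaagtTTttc
Gnao1-207: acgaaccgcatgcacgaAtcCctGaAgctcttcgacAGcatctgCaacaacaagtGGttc

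The loci are those of GENCODE M21 on GRCm38, and the annotation used for counting was another release. Among the alpha genes, Gnao1 lies at chr8:93809966-93969388 on the plus strand and Gnai1 at chr5:18265135-18360355 on the minus strand. Gnai2 lies at chr9:107614125-107635367 (minus), Gnai3 at chr3:108107280-108146146 (minus) and Gnaz at chr10:74967177-75016907 (plus). Gnb5 lies at chr9:75306288-75345876 (plus). Chromosome 1 carries 3 of the RGS genes, Rgs4 at chr1:169741477-169747642 (minus), Rgs7 at chr1:175059087-175492500 (minus) and Rgs8 at chr1:153653025-153700323 (plus). Rgs17 lies at chr10:5825663-5922400 (minus). Exons of 3 genes overlap an exon on the opposite strand (Gnao1 with 4930488L21Rik, Gnb5 with Gm19531, Rgs8 with Gm29529), and where counting does not use strand such reads cannot be told apart. Of each gene's 31-base words, between 0% (Gnai3) and 7.40% (Gnb5) also occur in transcripts of other genes.

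Gene totals ran from 18106112 to 25899794 estimated counts per library, and no pair of the 45 library pairs was identical. Defining markers of excitatory and inhibitory neurons were all present, as were those of glia and of the hippocampal fields. No marker list separated the groups. Summed oligodendrocyte markers reached 27446 CPM (counts scaled to a common library total) in AM6545 library 3, against 11663 to 20270 elsewhere. Red blood cell markers were also highest there, at 1334 CPM against 285 to 896 elsewhere. Choroid plexus markers summed to 60.8 CPM in vehicle library 4 and to 649 to 5035 in the other 9. Dentate gyrus markers were below all vehicle libraries in 4 of 5 AM6545 libraries (229 ± 11.99 against 204 ± 35.4 CPM, SD, n = 5). In bulk RNA, fewer cells or terminals of a type and less RNA in each cannot be told apart.

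Gnao1, the most abundant alpha subunit of brain membranes at the protein level, had levels of 224, 291.5, 249, 257 and 283 CPM (scaled by the TMM method) in vehicle libraries 1 to 5. In AM6545 libraries 1 to 5 its levels were 269, 261, 272, 283 and 277 CPM. All 5 AM6545 values fell inside the range of the vehicle values, of which library 1 was the lowest. The means were 261 ± 27.0 and 272 ± 8.24 CPM (SD, n = 5), a log2 fold change of 0.06 (SE 0.093), and of 0.012 without vehicle library 1. Gnai1, which encodes an adenylyl cyclase inhibiting subunit enriched in neurons, stood at 238, 304, 261, 291 and 302 CPM with vehicle. With AM6545 it stood at 295, 310.1, 258, 291 and 332 CPM. Libraries 2 and 5 of the AM6545 group were above every vehicle library, and the other 3 lay within their range. Gnai1 had a log2 fold change of 0.09 (SE 0.102), the highest of the 10 genes in this fit, and 0.039 without vehicle library 1. Gnb5 was higher than Gnai1 with limma-voom, without vehicle library 1 or 4 and without AM6545 library 5. Without AM6545 library 5, Gnao1 (0.055) was also above Gnai1 (0.049).

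Gnai2, a broadly expressed alpha subunit found also in microglia and blood cells, was at 301, 208.5, 257, 240.3 and 243 CPM with vehicle. Its AM6545 levels were 243, 207, 263, 249 and 231 CPM. The groups overlapped, and vehicle library 1 was the highest of the 10. The log2 fold change was -0.07 (SE 0.107), and without vehicle library 1 it was 0.0081. Gnai3, another widely expressed alpha subunit, ranged from 42.5 to 56.0 CPM with vehicle and from 48.4 to 56.0 CPM with AM6545. Its estimate was 0.03 (SE 0.097) on the log2 scale. Gnaz, the pertussis toxin-insensitive member of the class, ranged from 86.7 to 98.5 CPM with vehicle and from 85.1 to 102 CPM with AM6545, with a log2 fold change of -0.03 (SE 0.087). Neither gene had a group that lay apart from the other.

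**Figure D1:**
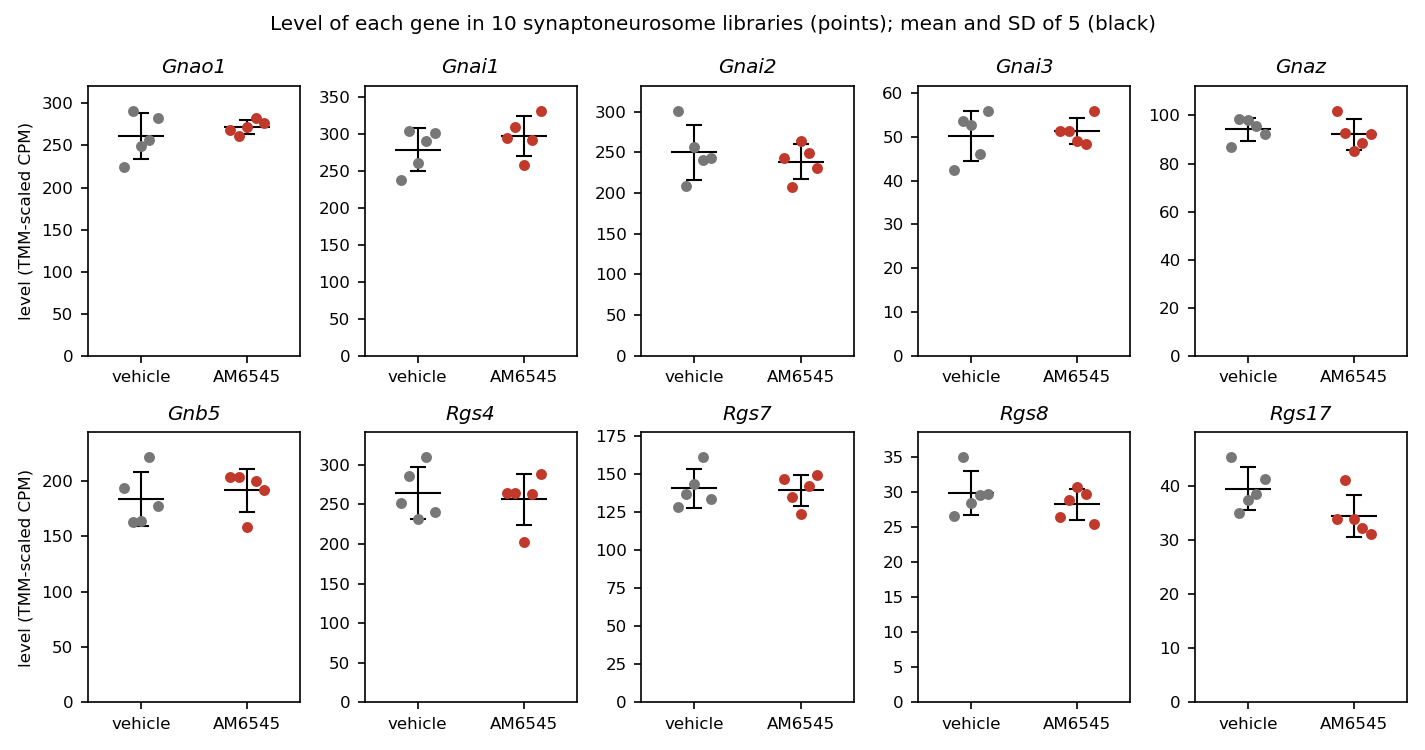
Level of each of the 10 genes (y axis, TMM-scaled CPM, from 0) in each library (points), by group on the x axis, with the mean and SD of 5 libraries in black. In CPM the groups overlap in every panel, and in the Rgs17 panel 4 of 5 AM6545 points sit below all vehicle points.

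Gnb5 was at 194, 163, 164, 221 and 177 CPM in the vehicle libraries. In the AM6545 libraries it was at 203.5, 203.3, 158, 199.6 and 192 CPM. AM6545 library 3 was the lowest of all 10, and the other 4 lay inside the vehicle range. The log2 fold change was 0.06 (SE 0.109). It was 0.12 without AM6545 library 3 and 0.13 without vehicle library 4, and 0.018 and 0.020 without vehicle libraries 2 and 3. AM6545 library 3 also had the highest sums of oligodendrocyte and of red blood cell markers, whose part in these values was not tested. Rgs7, the R7 class gene of highest RNA level in these libraries, ranged from 129 to 161.5 CPM with vehicle and from 124 to 149.5 CPM with AM6545. Its log2 fold change was -0.01 (SE 0.094).

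Rgs4, a regulator abundant in forebrain neurons, was at 251.7, 286, 232, 309.7 and 240.3 CPM with vehicle. With AM6545 it was at 264.4, 263.8, 202, 262 and 288 CPM. Library 3 of the AM6545 group was again the lowest of the 10, and the remaining values overlapped. The log2 fold change was -0.04 (SE 0.113), and 0.03 without AM6545 library 3. Rgs8, known best from cerebellar Purkinje cells, had the lowest CPM of the 10 genes, from 26.6 to 34.95 with vehicle and from 25.4 to 30.8 with AM6545. Its log2 fold change was -0.08 (SE 0.100), and -0.017 without vehicle library 2.

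Rgs17 had the largest estimated difference of the 10 genes. Its vehicle levels were 45.4, 35.1, 37.4, 38.6 and 41.4 CPM. Its AM6545 levels were 33.9, 41.2, 33.9, 32.4 and 31.2 CPM. Libraries 1, 3, 4 and 5 of the AM6545 group lay below every vehicle library, and library 2 lay among the highest vehicle values. The means were 39.6 ± 3.98 and 34.5 ± 3.91 CPM (SD, n = 5). This gave a log2 fold change of -0.20 (SE 0.104), with an unadjusted p of 0.0736 and an adjusted p of 0.9998 by edgeR's quasi-likelihood test with Benjamini-Hochberg adjustment. A two-sided exact permutation test of its mean CPM gave p = 0.0714, where the smallest that 5 against 5 libraries allow is 0.00794. With 1 library left out the log2 fold change ran from -0.14 (without vehicle library 1, unadjusted edgeR p 0.156) to -0.27 (without AM6545 library 2, p 0.0165). Without AM6545 library 4 or 5 it was -0.18 or -0.16 (p 0.150 and 0.162). The summed dentate gyrus markers were also below all vehicle libraries in 4 of 5 AM6545 libraries, with library 3 and not library 2 as the exception, and their part in the Rgs17 values was not tested.

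All 10 genes passed the filter on low counts, and by edgeR 0 of 10 had an adjusted p under 0.05, against 0 of 14358 genes tested (0%). With DESeq2 and limma-voom the count of the 10 was also 0, as was the count over all genes tested. At an unadjusted p under 0.05, again 0 of 10 were higher and 0 of 10 lower, where 1.14% of all genes were higher and 0.738% lower. In CPM no gene of the 10 had groups that did not overlap, against 0.174% of all genes with every AM6545 library above and 0.118% with every one below. The estimates were above 0 for 4 genes and below 0 for 6, with a median of -0.02, and over all genes tested the median was -0.01. By role, 3 of the 5 alpha genes were above 0 and all 4 RGS genes below, none past the test, where 48.1% of all genes tested were above 0. The signs of Rgs4 and Rgs7 changed with limma-voom. As multiples of the vehicle level, the 95% intervals of the fitted change ran from 0.748 to 1.02 for Rgs17, 0.918 to 1.24 for Gnai1, 0.816 to 1.12 for Gnai2 and 0.910 to 1.20 for Gnao1. For Gnaz the interval was 0.860 to 1.11 and for Gnai3 0.885 to 1.18. For Gnb5 it was 0.888 to 1.22, and for Rgs4, Rgs7 and Rgs8 it was 0.822 to 1.15, 0.864 to 1.14 and 0.816 to 1.095. The spread between libraries of 1 group, as an SD of log2 CPM, had a median of 0.138 over the 10 genes, from 0.0877 (Gnaz) to 0.185 (Rgs4). Over all genes tested that median was 0.213, and over the 6088 genes with levels at least as high it was 0.176.

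**Figure D2:**
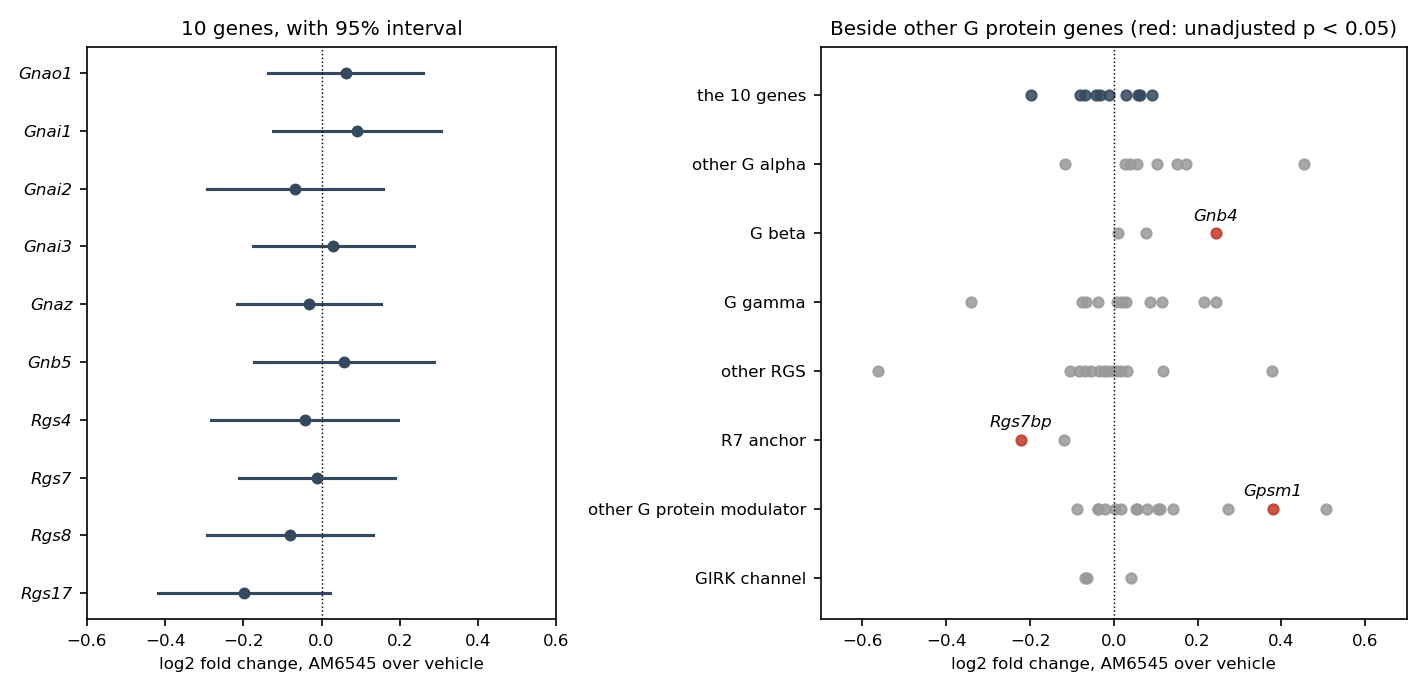
Left, log2 fold change of AM6545 over vehicle (x axis) for each of the 10 genes, with its 95% interval as a line. Right, the same quantity for the 10 genes (dark) and for the tested genes of 7 other G protein lists (grey), 1 point a gene. All 10 intervals include 0, and red points are the 3 genes with an unadjusted p under 0.05, Gnb4, Gpsm1 and Rgs7bp.

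Levels were then compared between genes on a length-scaled measure, TPM (counts divided by length, then scaled to a common total), computed per transcript with M21 lengths and summed by gene, as a mean over the 10 libraries with its SD. Gnai2 was highest at 219 ± 15.3 TPM, followed by Gnai1 at 179 ± 25.5, Gnb5 at 176 ± 20.1, Rgs4 at 172 ± 25.3 and Gnao1 at 159 ± 19.4. These neighbours did not separate, since Gnai1 exceeded Gnb5 in 5 of 10 libraries, Gnb5 exceeded Rgs4 in 7 and Rgs4 exceeded Gnao1 in 8. Rgs7 came next at 119 ± 12.3 TPM, below Gnao1 in all 10 libraries. Gnaz followed at 52.8 ± 5.09 TPM, a range that did not meet that of Rgs7. On this scale the groups overlapped for 9 of the 10 genes, and Rgs17 was the exception, as read after its values were seen. The Rgs17 level was 32.5, 33.3, 32.2, 31.84 and 35.1 TPM with vehicle and 29.2, 31.79, 27.9, 25.6 and 25.7 TPM with AM6545. All 5 AM6545 libraries were below the vehicle libraries, library 2 by a narrow margin, where 0.119% of 14326 genes had every AM6545 library below and 0.181% every one above. The ratio of mean TPM was -0.23 on the log2 scale, given as a description because the scale was compared after this separation was seen. The TPM adds up transcript counts divided by their lengths, so it depends on the uncertain division between Rgs17 transcripts described below, and CPM does not. In mean level, Rgs17 (30.5 ± 3.23 TPM) and Gnai3 (30.3 ± 3.96 TPM) were alike, with Rgs17 above in 5 of 10 libraries. Rgs8 was lowest at 10.5 ± 1.502 TPM, in a range apart from that of Gnai3. Cnr1, the receptor that AM6545 binds, lay between Gnaz and Rgs17 at 32.9 ± 3.48 TPM.

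Among all 21 RGS genes in the table, Rgs4 ranked the first by mean TPM and Rgs7 the third, with Rgs14, a marker of hippocampal field CA2, between them at 127 ± 21.1. Rgs17 was the seventh and Rgs8 the twelfth, and Rgs21 was listed at 0 in every library. Within the R7 class, Rgs7 held 85.3% of the summed TPM of Rgs6, Rgs7, Rgs9 and Rgs11. Its share was 85.3% in both groups (SD 1.75 with vehicle and 0.820 with AM6545, n = 5). The Gnb5 level over the summed R7 level was 1.23 ± 0.127 with vehicle and 1.29 ± 0.0986 with AM6545 (SD, n = 5), so transcripts of the partner outnumbered those of the class in both groups.

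**Figure D3:**
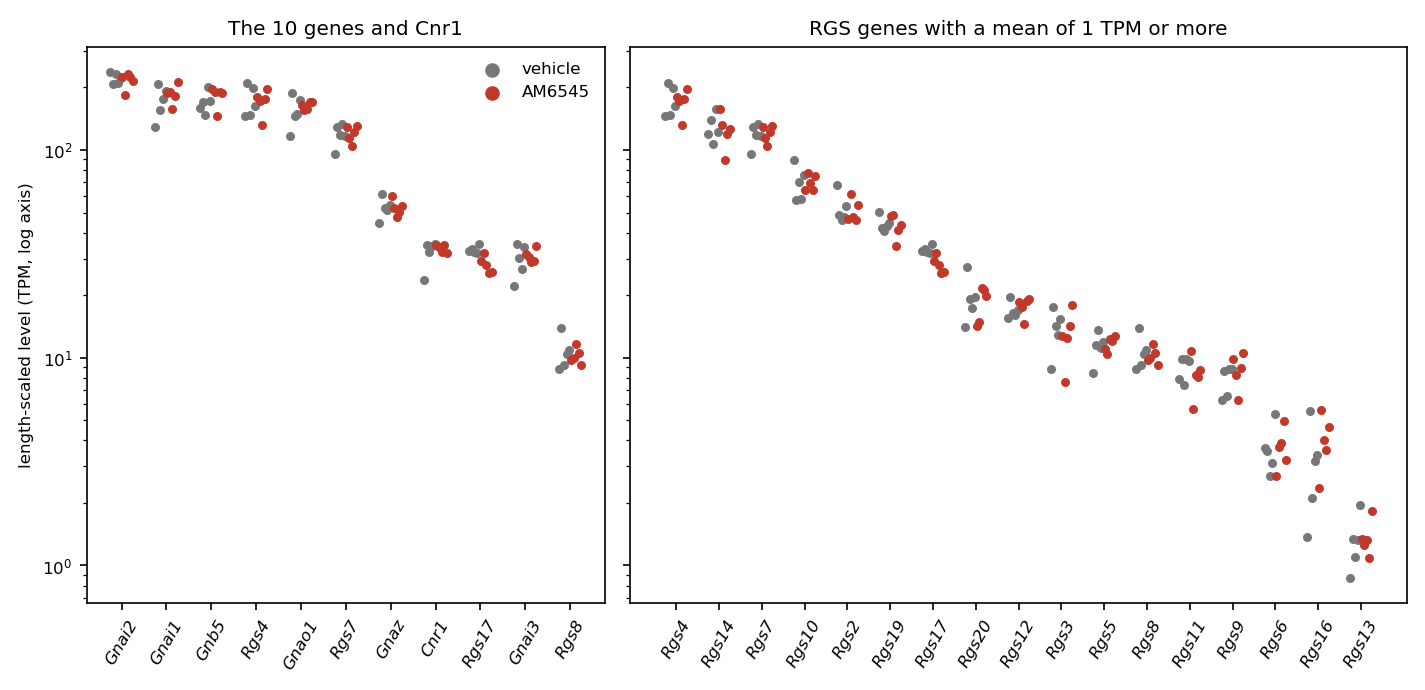
Length-scaled level (y axis, TPM, log axis) in each vehicle (grey) and AM6545 (red) library, for the 10 genes and Cnr1 on the left and for RGS genes with a mean of at least 1 TPM on the right, each ordered by its mean. Gnai2 leads at 219 TPM and Rgs8 is lowest at 10.5 TPM on the left, and the 2 colours overlap for every gene shown except Rgs17, whose AM6545 points all lie under its vehicle points.

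The 5 alpha genes were also set against one another as shares of their summed TPM. Gnai2 made up 34.4%, Gnai1 27.9%, Gnao1 24.8%, Gnaz 8.24% and Gnai3 4.71% on average over the 10 libraries. With vehicle the Gnai2 share ranged from 29.8% to 43.1%, and with AM6545 from 30.1% to 37.2%. The Gnao1 share ranged from 21.2% to 26.8% with vehicle and from 24.6% to 25.8% with AM6545. Vehicle library 1 had the highest Gnai2 share and the lowest Gnao1 share of the 10. It also had the highest sum of choroid plexus markers (5035 CPM), whose part in these shares was not tested. All 5 shares overlapped between groups.

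Transcript counts were deposited too, and they show which forms of each gene made up these levels. Gnao1-203 held 46.4% of the Gnao1 counts on average and Gnao1-201 44.6%, while Gnao1-207, the form with the other coding end printed above, held 8.49%. The division between Gnao1-203 and Gnao1-201 is uncertain, since 0% of the 31-base words of Gnao1-203 and 6.10% of those of Gnao1-201 are private to it among Gnao1 transcripts. For Gnao1-207 that share is 73.4%. The Gnao1-203 share was 43.0%, 53.4%, 41.9%, 48.1% and 43.6% in vehicle libraries 1 to 5. In AM6545 libraries 1 to 5 it was 48.0%, 45.4%, 44.2%, 47.7% and 48.5%. Vehicle library 2 was the highest and vehicle library 3 the lowest, with every AM6545 library between them. The means differed by 0.73 percentage points (46.0 ± 4.77 and 46.7 ± 1.88, SD, n = 5; two-sided exact permutation p = 0.770). The difference was -0.29 points without vehicle library 3. The Gnao1-207 share, a measure added after the transcript table was seen, was 8.67 ± 0.878% with vehicle and 8.32 ± 1.12% with AM6545 (SD, n = 5; two-sided exact permutation p = 0.627). Adjusted over these 2 tests, both exact permutation p-values were 0.770.

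**Figure D4:**
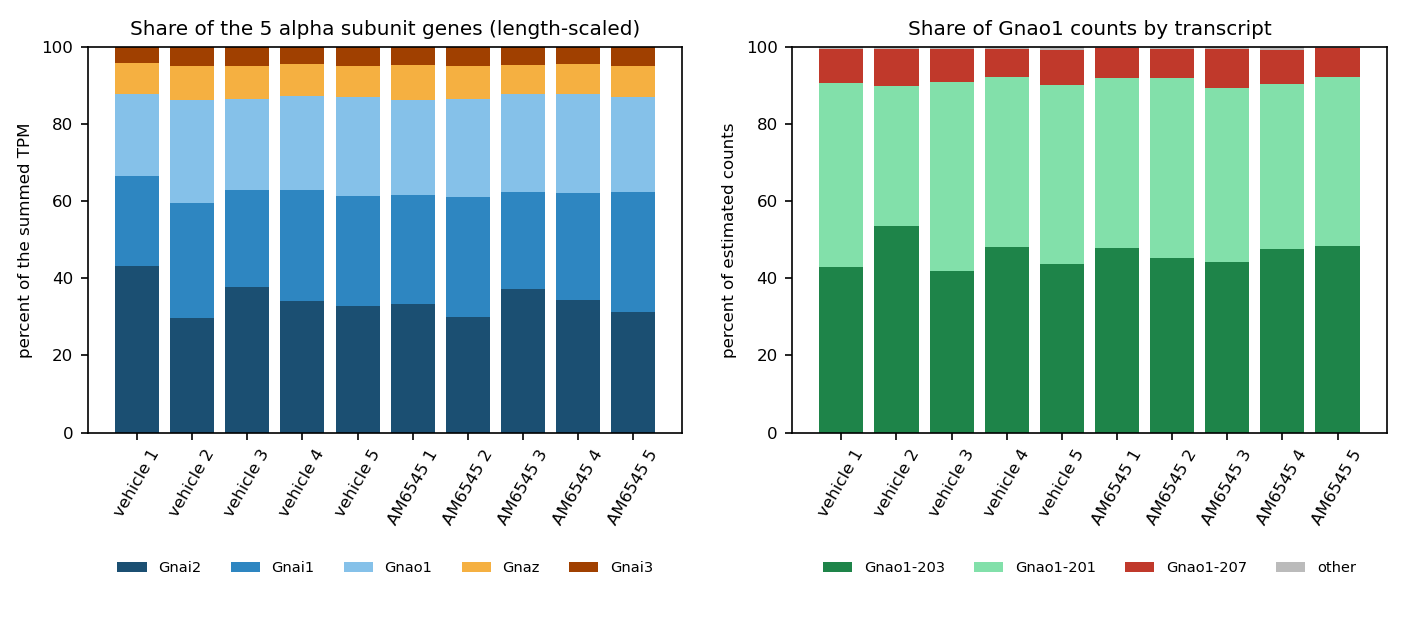
Left, share of the summed TPM of the 5 alpha genes (y axis, percent) held by each gene in each library (bars). Right, share of Gnao1 counts (y axis, percent) held by each transcript in each library. Gnai2 is the widest band on the left at a mean of 34.4%, and Gnao1-207 holds 8.49% on average on the right, with no separation of the groups in either panel.

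Gnai1 and Gnai3 were each counted as a single transcript. Gnai2-201 held 92.5% of the Gnai2 counts and Gnai2-202 7.15%. Gnaz-201 held 97.9%, Gnb5-206 98.1%, Rgs4-201 99.8% and Rgs8-202 94.3% of the counts of their genes. Gnb5-202, at 1.39%, is the form with a longer coding sequence (1185 against 1059 bases), and the long Gnb5 protein is known from the retina. Rgs7 was divided among Rgs7-206 (47.0%), Rgs7-207 (32.4%) and Rgs7-203 (20.3%), and Rgs17 between Rgs17-203 (60.2%) and Rgs17-204 (38.7%). The division within Rgs7 is uncertain. Among Rgs7 transcripts, 5.83% of the 31-base words of Rgs7-206, 1.19% of those of Rgs7-207 and 0% of those of Rgs7-203 are private. Within their own genes that share is 1.55% for Gnai2-202 and 5.75% for Gnb5-202, so the shares of these minor forms are uncertain too.

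Of 60 listed transcripts of the 10 genes, 50 had a count, 21 passed the filter on low counts and 0 had an adjusted p under 0.05, against 0.00314% of the 31848 transcripts tested. At an unadjusted p under 0.05, 0 of the 21 were higher and 2 lower, where 1.1% of all tested transcripts were higher and 0.873% lower. None of the 21 had groups that did not overlap, against 0.295% of all with AM6545 above and 0.279% with AM6545 below. Rgs8-201, a minor form with 4.93% of the Rgs8 counts, was at 1.60, 2.42, 2.03, 1.24 and 2.45 CPM with vehicle and at 0.981, 0.621, 1.39, 1.34 and 0.543 CPM with AM6545. Libraries 3 and 4 of the AM6545 group overlapped with the vehicle range and the other 3 lay below it. Its log2 fold change was -0.99 (SE 0.35, unadjusted edgeR p = 0.0167, adjusted p 0.9999; exact permutation p of the mean CPM 0.0238), from 11 to 58 counts per library. Rgs17-203, the main Rgs17 form, was at 23.4, 23.3, 23.8, 24.4 and 25.1 CPM with vehicle. With AM6545 it was at 21.4, 23.4, 21.7, 18.8 and 17.97 CPM. All but library 2 of the AM6545 group lay below the vehicle libraries. Its log2 fold change was -0.22 (SE 0.091, unadjusted edgeR p = 0.0377, adjusted p 0.9999; exact permutation p 0.0159). None of its 31-base words is private to it, so its division from Rgs17-204 is uncertain. Rgs17-204 had a log2 fold change of -0.11 (SE 0.16).

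The other genes of the pathway were taken from 7 lists with 68 genes, of which 56 were tested. None of the 56 had an adjusted p under 0.05 by edgeR, DESeq2 or limma-voom, nor did any other gene tested. Of the 56 estimates, 34 were above 0 and 22 below, and the median was 0.02. Over all genes tested, 48.1% of estimates were above 0. At an unadjusted p under 0.05, 2 were higher (Gnb4 and Gpsm1) and 1 lower (Rgs7bp), of 56, where 1.14% of all genes tested were higher and 0.738% lower. That count of 3 was 1 without AM6545 library 5, 2 without AM6545 library 4 and 6 without vehicle library 2. It was 7 without AM6545 library 3, 5 with the replicate block and 8 with limma-voom. The share of all genes tested with an unadjusted p under 0.05 moved too, from 1.88% in the main fit. This share was 1.72% without AM6545 library 5, 1.14% without AM6545 library 4 and 3.997% without vehicle library 2. Without AM6545 library 3 it was 3.49%, with the replicate block 1.93% and with limma-voom 4.94%. Gnb4, another G protein beta subunit, was at 19.8, 20.1, 20.3, 19.4 and 20.6 CPM with vehicle and at 21.03, 21.8, 24.6, 25.3 and 25.8 CPM with AM6545. In CPM every AM6545 library was above every vehicle library, as was so for 25 of 14358 genes. In TPM the groups overlapped, with 2 of 5 AM6545 libraries above all vehicle libraries, of which library 2 was the highest at 20.7 TPM. Gnb4 had a log2 fold change of 0.24 (SE 0.095, unadjusted edgeR p = 0.0203, adjusted p 0.9998; exact permutation p 0.00794, which the separation in CPM fixes at its smallest value and which adds nothing to it). Gnb1 and Gnb2, the other tested beta genes, had log2 fold changes of 0.01 and 0.08.

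Rgs7bp encodes the membrane anchor of the complex that Gnb5 forms with R7 proteins. Its levels were 379, 316, 320.2, 335.5 and 299 CPM with vehicle and 278, 282, 299, 287 and 268 CPM with AM6545. AM6545 library 3 exceeded vehicle library 5 by a small margin and the other 4 were below every vehicle library. In TPM all 5 AM6545 libraries (75.9 to 80.7) were below the vehicle libraries (84.0 to 96.0), as was so for 0.119% of 14326 genes. This separation is given as a description, since in CPM the groups overlapped. Rgs7bp had a log2 fold change of -0.22 (SE 0.091, unadjusted edgeR p = 0.0265, adjusted p 0.9998; exact permutation p 0.0159), and of -0.17 without vehicle library 1. Gpr158, the other tested R7 anchor and an orphan receptor, was at 51.9 ± 6.55 and 47.7 ± 4.78 CPM. The partners Gnb5 and Rgs7 had estimates of 0.06 and -0.01. Their 95% intervals overlapped that of Rgs7bp, and the difference between them was not tested.

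Gpsm1 encodes a modulator that binds free Gi/o alpha subunits in their GDP state. It was at 20.8, 25.01, 19.1, 22.5 and 29.8 CPM with vehicle and at 36.0, 30.8, 23.1, 30.8 and 31.6 CPM with AM6545. The groups overlapped through AM6545 library 3 alone, and the other 4 were above every vehicle library. Gpsm1 had a log2 fold change of 0.38 (SE 0.13, unadjusted edgeR p = 0.0116, adjusted p 0.9998; exact permutation p 0.0476). An exon of Gpsm1 overlaps one of Dnlz on the opposite strand. Of the other modulators, Cnrip1, a CB1 interacting protein, was at 176 ± 14.7 and 165 ± 10.7 CPM, and Ccdc88a at 138 ± 12.6 and 134 ± 6.79 CPM.

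Among the other alpha genes, 7 of 8 tested had estimates above 0, where 48.1% of all genes tested did. Gnas, the stimulatory alpha subunit, was at 1234 ± 47.9 CPM with vehicle and 1389 ± 134 CPM with AM6545 (log2 fold change 0.17, SE 0.099, unadjusted edgeR p = 0.103, adjusted p 0.9998; exact permutation p 0.0238), with 4 of 5 AM6545 libraries above all vehicle libraries. Gna11, which activates phospholipase C, was at 188 ± 24.4 and 173 ± 14.4 CPM. In TPM, the summed Gi/o alpha level over that of Gnas and Gnal was 0.490 ± 0.0301 with vehicle and 0.443 ± 0.0359 with AM6545 (SD, n = 5), with overlapping libraries. The 2 gamma subunit genes of highest CPM, Gng7 and Gng2, were at 197 ± 31.03 and 198 ± 33.4 CPM with vehicle and 209 ± 28.5 and 193 ± 17.6 CPM with AM6545. Rgs14 was at 158 ± 24.3 and 149 ± 27.6 CPM, and Rgs2 at 62.6 ± 7.79 and 62.6 ± 8.91 CPM. The GIRK channel genes Kcnj3 and Kcnj9, effectors of the beta-gamma pair, were at 90.2 ± 8.18 and 86.0 ± 6.03 CPM and at 73.2 ± 5.67 and 75.3 ± 10.2 CPM, vehicle first. By list, estimates above 0 were 3 of 3 for beta, 7 of 11 for gamma, 5 of 14 for other RGS, 0 of 2 for R7 anchors, 11 of 15 for modulators and 1 of 3 for GIRK channels.

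The 10 genes did not vary as a block across the libraries. Over their 45 pairs, the correlation of log2 CPM across 10 libraries had a median of 0.05 and was above 0 in 25. The highest was between Rgs4 and Rgs7 (Pearson r = 0.753, Spearman rho = 0.733). The lowest was between Gnai1 and Gnai2 (r = -0.84, rho = -0.88), and without the 2 libraries farthest from the Gnai1 median (vehicle 1 and AM6545 3) it was r = -0.60. These 2 pairs are the extremes of the 45, and all values share the same libraries and scaling, so they are a description. The 3 genes most like Gnao1 across the 10 libraries, of 14357 compared, were Spire1 (r = 0.970), Cnot3 (r = 0.969) and Mob1a (r = 0.967). They were picked as the highest of these correlations over 10 libraries, so their r values are a description too.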

How the data were processed

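The authors deposited estimated counts per gene and per transcript for 10 libraries of hippocampal synaptoneurosome RNA. Salmon 1.5.2 and mm10 are named in the submitters' processing notes, and use of strand is not given in the sources used here. Library kits were SMARTer ultra-low-input, per the labels' protocols. The deposited estimated counts were rounded to whole numbers (38.6% of gene values were not whole). Groups and numbers came from library titles. Symbols matched 22155 of 22255 genes, and M21 names 101527 of 102392 transcripts. Only 11 gene identifiers carry the version of GENCODE M21, so loci, lengths and overlaps are those of that release.

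Genes (14358 tested) and transcripts (31848 tested) were each fitted as a whole with edgeR 4.0.16 in R 4.3.3: TMM scaling, filterByExpr (minimum count 10, minimum total 15), group as the only term, robust quasi-likelihood tests, two-sided, Benjamini-Hochberg threshold 0.05. The fit was also run on simulated data as a check of the code. Its power to detect changes of the size estimated for the 10 genes was not assessed. Transcript shares and, added after the data were seen, the mean CPM of named genes were compared with exact permutation tests over 252 arrangements, whose smallest possible p is 0.00794. Alternatives were other scalings, DESeq2 1.42.0, limma 3.58.1 (voom with quality weights), other filters, the replicate number as a block and each library left out. The labels give no batch.

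Named were all 10 genes, the 2 genes of highest mean CPM of each pathway list and any with an unadjusted p under 0.05, the 2 transcripts of highest count per gene and any with an unadjusted p under 0.05, and the 3 genes most correlated with Gnao1. The genes and lists were chosen with earlier results of these data known.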

Additional observations from a re-analysis of the deposited data

Results flagged for a closer look

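In 8 of 56 groups of 5 libraries examined, 1 library stood apart from the other 4 by a gap above Dixon's 95% critical value, and chance gives about 1 in 20 (2.8 of 56). The 56 are not independent, since transcripts and genes share reads. AM6545 library 3 was the lowest of its group for Gnb5 (158 CPM, others 192 to 203.5), for its main transcript Gnb5-206 (156 CPM, others 190.3 to 203.0) and for Rgs4-201 (200.4 CPM, others 263 to 287), and the highest for Gnai2-202 (20.5 CPM, others 16.3 to 17.3). AM6545 library 2 was the highest of its group for Rgs17 (41.2 CPM, others 31.2 to 33.9) and for Rgs17-204 (17.7 CPM, others 12.5 to 13.7). Vehicle library 1 was the highest of its group for Gnai2-202 (27.0 CPM, others 14.4 to 17.2). Gnb5-202 was at 0 CPM in vehicle library 3 and at 2.75 to 3.54 CPM in the other 4 vehicle libraries.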

How the results depend on the processing

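No gene of the 10, no other pathway gene and no transcript of the 10 had an adjusted p under 0.05 in any alternative run (17 at gene level, 14 for transcripts). Such calls were rare over all features too. In any 1 of these runs they numbered at most 1 over all genes tested. Over all transcripts tested the highest count was 11 of 31848, with DESeq2's Wald test. With limma-voom the log2 fold changes of Gnai3 (-0.051), Rgs4 (0.034) and Rgs7 (0.013) changed sign, and the cause was not tested. As a ratio of mean TPM, added after seeing the data, Rgs7 was at 0.021 on the log2 scale and the other 9 genes kept their sign. Leaving out 1 library at a time, the ranges that crossed 0 were -0.126 to 0.0081 for Gnai2, -0.024 to 0.072 for Gnai3, -0.089 to 0.031 for Rgs4, -0.042 to 0.042 for Rgs7 and -0.077 to 0.094 for Gnao1-207. Ranges that did not cross 0 but moved by over 1.5 times were 0.012 to 0.105 for Gnao1, 0.039 to 0.139 for Gnai1, -0.080 to -0.0053 for Gnaz, 0.018 to 0.135 for Gnb5 and -0.119 to -0.017 for Rgs8. Those of Rgs17 (-0.145 to -0.269), Gpsm1 (0.304 to 0.481) and Rgs7bp (-0.168 to -0.256) did so too. So did those of Gnao1-203 (0.0040 to 0.189), Gnao1-201 (0.030 to 0.107) and Rgs17-203 (-0.176 to -0.267). The Gnao1-203 share difference ran from -0.29 to 2.59 points. Rgs17 kept its sign in all 17 (unadjusted p 0.0165 to 0.162) and had an unadjusted p under 0.05 with voom and without vehicle library 2 or AM6545 library 2. Gnb4 lost an unadjusted p under 0.05 without AM6545 library 4 or 5, and Rgs7bp without vehicle library 1 or AM6545 library 5. Rgs17-203 lost it with at least 10 counts required in every library (0.0594) and without vehicle library 3, 4 or 5 or AM6545 library 4 or 5 (0.0535 to 0.0810).

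The labels do not say whether the shared replicate numbers pair the libraries. Deviations from the group mean correlated at -0.14, -0.19, 0.23, 0.39 and 0.06 between same-numbered libraries. These values were not compared with those of differently numbered libraries, so they cannot decide whether the libraries are paired. With the replicate block 0 genes of the 10, 0 other pathway genes and 0 transcripts of the 10 had an adjusted p under 0.05. The same count was 0 over all genes and over all transcripts tested. No transcript of the 10 had an unadjusted p under 0.05 (2 without the block), where 1.87% of all transcripts tested did (1.97% without it). With the block the Gnao1-207 log2 fold change was 0.0049, and the Gnao1-203 share difference was 0.73 points (exact sign-flip permutation p = 0.875, smallest possible 0.0625).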

Other observations

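Gnaz-202 was given 268 counts in vehicle library 1 and 0 in the other 9 libraries, and did not pass the filter on low counts. In that library Gnaz-201 held 83.9% of the Gnaz counts, the lowest of the 10.
Rgs4-202 took 1.45% of the Rgs4 counts in AM6545 library 3 and at most 0.281% in any other library.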
